A study of Homo sapiens with 6 samples.

Results

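The mRNAs described here encode the factors that start, extend and end protein synthesis in DMS114, a long-cultured line of human small cell lung cancer. They are the rows of the deposited count table whose symbol begins with EIF or EEF and a digit, plus the release factors ETF1 and GSPT1 and the density-regulated reinitiation factor DENR. Of 155 rows that met this pattern, 80 pseudogene rows, 3 antisense or divergent transcripts and EIF2AK2 were left out, which gave 71 genes among the 36458 symbols in the table. The study exposed the cells to 2.5 mM β-alanine, a beta-amino acid that ribosomes do not use, for 48 h, and compared them with cells given an equal volume of vehicle. Each group had 3 libraries made from polyadenylated RNA. Both groups came from this 1 line, and the labels name no genetic change. Whether the libraries of a group came from separate cultures is not stated, and the p-values then measure only how these libraries scatter, which may be technical.

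In translation initiation, eIF2 carries the initiator tRNA to the small ribosomal subunit, eIF3 holds the initiation complex together, and the eIF4F complex binds the mRNA cap and unwinds the leader. Elongation factor eEF1A then delivers each aminoacyl-tRNA, eEF2 moves the ribosome along, and the release factors end the chain at a stop codon. Phosphorylation of eIF2 by the EIF2AK kinases, and binding of eIF4E by the 4E-binding proteins downstream of mTOR, are the main known brakes on initiation when nutrients are short or cells are stressed.

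Many mRNAs of the translation apparatus are known to begin with a 5′ terminal oligopyrimidine (TOP) run, a C at the first base followed by further pyrimidines, through which mTOR and LARP1 control how well they are translated. Of the 57 factors with a RefSeq promoter window (GRCh38.p14), 13 had a C followed by at least 4 pyrimidines at the annotated start, or 22.8%, against 5.14% of the 27305 genes with a window. The windows below span 15 bases before and 15 bases from the start, on the gene's own strand and 5′ to 3′, with the pyrimidine run in capitals. They are shown for the members with a run that passed the test in either direction, and for EEF2, EIF4A2 and EIF4B, abundant members that did not pass. Windows of the other members with a run, such as EIF2S3 and EEF1B2, are left out.
EEF1A1, chr6:73521018-73521047, minus strand: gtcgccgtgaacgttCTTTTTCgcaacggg
EEF2, chr19:3985449-3985478, minus strand: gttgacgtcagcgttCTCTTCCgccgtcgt
EIF4A2, chr3:186783562-186783591, plus strand: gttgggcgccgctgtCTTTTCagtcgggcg
EIF4B, chr12:53006441-53006470, plus strand: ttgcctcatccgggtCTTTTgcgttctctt
EIF2A, chr3:150546772-150546801, plus strand: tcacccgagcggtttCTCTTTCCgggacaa
EIF3F, chr11:7987322-7987351, plus strand: ttccgcttccgcctcCTTCTTTCTCgacaa
EIF3M, chr11:32583816-32583845, plus strand: gcgcggcccagttccCTTTTCCggtcggcg
EIF2D, chr1:206612451-206612480, minus strand: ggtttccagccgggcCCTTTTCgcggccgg

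Library totals ran from 14433801 counts in β-alanine library 1 to 32909568 in β-alanine library 3, and the control libraries held 18814876 to 22072654. β-alanine library 1 lay apart from the other 2 exposed libraries: on the first principal component of all genes it stood at -9.13, against -23.52 and -23.61 for those 2 and 16.71 to 20.02 for the controls. The mean chi-square per gene between 2 libraries, which grows with depth, was 4.23 and 4.86 between library 1 and those 2. It was 4.69 to 5.58 between library 1 and the controls, and 12 to 15.9 between exposed libraries 2 and 3 and the controls. Among the small cell lung cancer markers, YAP1 was high, at a mean of 124 CPM (counts per 1e6, on scaled library totals) in the controls, whereas INSM1 (0.229) and POU2F3 (0.278) were near 0 and NEUROD1 was at 2.28. Neuroendocrine markers were present, with ENO2 at 99.1, SYP at 61 and CHGA at 19.6 CPM in the controls, while NCAM1 was at 2.32. After β-alanine CHGA rose by 0.56, SYP by 0.50 and the keratin KRT18 by 0.58 on the log2 scale, and NCAM1 (log2 -0.67) and FGFR1 (116 against 143 CPM) fell; their part in the results was not tested. The summed level of 6 detected markers of other cell types, most of it decorin (DCN), was 161 to 175 CPM in the exposed libraries and 198 to 207 in the controls. None of those 6 was at 0 in every library, and their part in the results was not tested. In bulk RNA, a change in each cell and a change in the share of cells that express a gene cannot be told apart.

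Of the 71 factors, 68 had enough counts to be tested. After β-alanine 19 rose and 9 fell at an adjusted p below 0.05 (edgeR quasi-likelihood test, Benjamini-Hochberg over all 17331 tested genes), and 40 did not pass. Of those 40, EIF3L (lower), EIF3J (higher) and EEF1A2 (lower) reached 0.05 in the same test without adjustment, and no other did. Without exposed library 1, which stood apart, 22 rose and 13 fell. The counts were 10 and 5 without exposed library 2, 13 and 5 without exposed library 3, 16 and 6 without control library 1, 10 and 3 without control library 2, and 14 and 8 without control library 3. The 28 calls are 41.2% of the tested factors, where 27.9% of all tested genes were called. By direction, 27.9% of the factors rose against 14.1% of all genes, and 13.2% fell against 13.8%. Precision grows with abundance, and these factors were abundant: their median level was 153 CPM against 17.5 CPM for all tested genes. Among the 1294 tested genes at or above 153 CPM, 41.7% were called, 20.7% as higher and 21% as lower. That set reached higher levels than the factors, with a median of 235 CPM. The factors' share called in either direction was near that of this set, with more of them higher and fewer lower, a difference that was not tested. The role groups below hold few genes each. Their counts of calls stand beside these shares, and nothing particular to a role is read from them.

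The changes were small. The median log2 change of the 68 factors was 0.03 and that of all tested genes was -0.003, and the median size of change regardless of sign was 0.11 against 0.16. Only EEF1AKMT2 and EIF2D changed by more than 0.5 on the log2 scale, which is 2.94% of the tested factors against 9.08% of all tested genes. In 33 factors, or 48.5%, the 3 exposed libraries lay wholly above or wholly below the 3 controls, where 39.1% of all tested genes did so. None of these comparisons with all tested genes was made at like abundance. Their median level was 17.5 CPM, against 153 CPM for the factors, and precision grows with abundance. The 19 factors that rose averaged 0.17, 0.23 and 0.21 above the control mean in exposed libraries 1, 2 and 3, and the 9 that fell averaged 0.25, 0.37 and 0.40 below it (-0.25, -0.37 and -0.40).

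**Figure D1:**
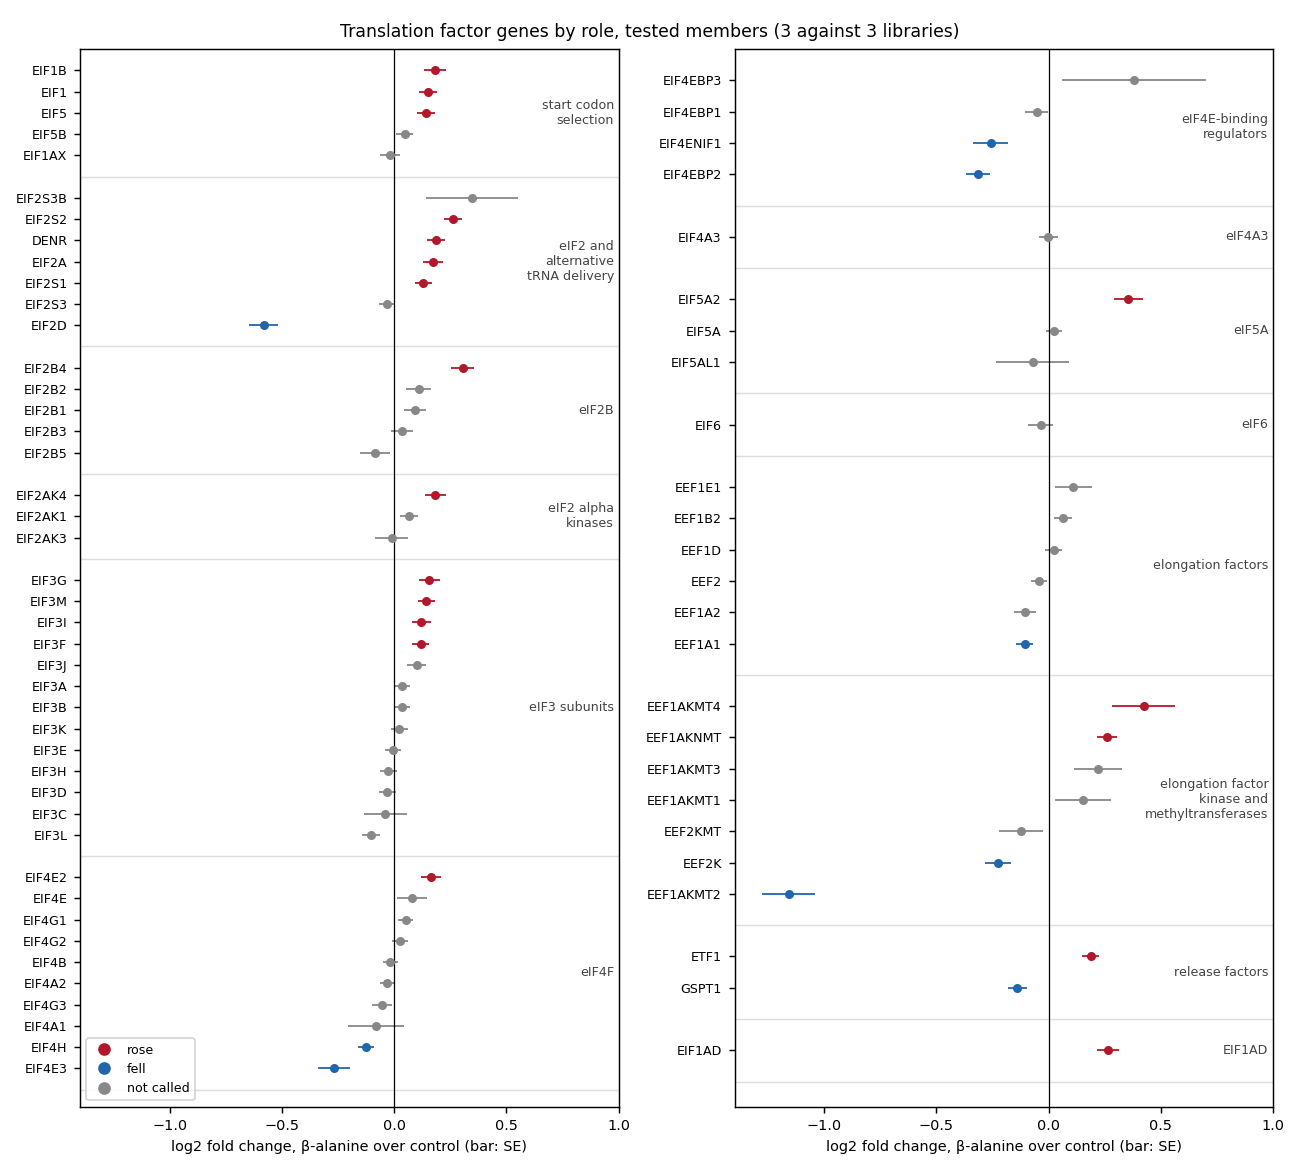
Log2 change after β-alanine (horizontal axis, β-alanine over control) of every tested translation factor, grouped by role, with points for the estimate and bars for its standard error from edgeR. Colours mark factors that rose, fell or did not pass the test; most points lie within 0.5 of 0, with EEF1AKMT2 (-1.16) and EIF2D (-0.58) farthest out among those that passed.

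Of the 5 factors that select the start codon, 3 rose and none fell (60% called, against 27.9% of all tested genes). EIF1B, a paralog of the start codon fidelity factor EIF1, stood at 74.1, 75.7 and 69.8 CPM in exposed libraries 1 to 3 and at 66.2, 62.8 and 64.6 CPM in control libraries 1 to 3. EIF1 itself stood at 255, 279 and 259 CPM after β-alanine and at 246, 238 and 231 CPM in the controls. In both genes every exposed library was above every control, and exposed library 2 was the highest of the 6. The rise was 0.18 ± 0.05 (log2, SE) for EIF1B with an edgeR adjusted p of 0.0087, and 0.15 ± 0.04 for EIF1 with an adjusted p of 0.00883. EIF5, which makes eIF2 hydrolyse its GTP at the start codon, rose by 0.14 ± 0.04 (edgeR adjusted p = 0.0131). EIF5B, the GTPase that joins the ribosomal subunits, had a change of 0.05 (edgeR adjusted p = 0.375), and EIF1AX, which opens the subunit for scanning, one of -0.02 (0.787). These 3 calls were lost in some refits: without exposed library 2 the adjusted p was 0.0696 for EIF1B, 0.0982 for EIF1 and 0.107 for EIF5, without control library 2 it was 0.0648 for EIF1B and 0.0517 for EIF1, without control library 3 it was 0.0702 for EIF1 and 0.0532 for EIF5, and without exposed library 3 it was 0.0621 for EIF5.

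Among the genes for eIF2 and for the factors that can bring tRNA to the ribosome without it, 4 of 7 rose and 1 fell. That is 71.4% called, against 27.9% of all tested genes. The fall was that of EIF2D, a single-chain relative of the DENR and MCTS1 pair that acts in reinitiation and in recycling of the small subunit (chr1:206569146-206612465). It stood at 26.7, 23.1 and 24.9 CPM in the exposed libraries and at 36.9, 37.5 and 36.5 CPM in the controls, that is 24.9 ± 1.81 against 36.9 ± 0.513 CPM (mean ± SD, n = 3 each). All 3 exposed libraries lay well below the controls, whose values were close together. The log2 change was -0.58 ± 0.07 (edgeR adjusted p = 1.59e-06). DENR (chr12:122752824-122771064) went the other way, at 188, 192 and 184 CPM after β-alanine and 166, 164 and 165 CPM in the controls. Its groups were apart and it rose by 0.19 ± 0.04 (edgeR adjusted p = 0.000949). MCTS1, its partner, had a change of 0.07 and did not pass the test.

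Of the eIF2 subunits, alpha and beta rose and gamma did not pass. EIF2S2, the beta subunit (chr20:34088309-34112243), stood at 153, 160 and 155 CPM in the exposed libraries and at 131, 126 and 133 CPM in the controls. EIF2S1, the alpha subunit that the stress kinases phosphorylate, stood at 194, 198 and 202 CPM against 178, 182 and 183 CPM. EIF2S3, the gamma subunit that binds GTP and tRNA, stood at 549, 550 and 535 CPM against 558, 560 and 551 CPM. Exposed libraries were above all controls for the beta and alpha subunits, and slightly below them for the gamma subunit. EIF2S2 rose by 0.26 ± 0.04 (edgeR adjusted p = 6.87e-05) and EIF2S1 by 0.13 ± 0.04 (0.0139), while EIF2S3 had a change of -0.03 ± 0.04 (0.557). EIF2S3B, a near copy of EIF2S3 with 26 to 68 counts per library, had a change of 0.35 ± 0.21 (edgeR adjusted p = 0.218), and reads of the 2 copies could be split between them. EIF2A, which can deliver initiator tRNA on its own, rose by 0.17 ± 0.05 (edgeR adjusted p = 0.0055). The EIF2S1 call was lost without exposed library 2 (0.0525), exposed library 3 (0.0793), control library 1 (0.0618) or control library 2 (0.0553), and that of EIF2A without control library 2 (0.0628).

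Of the 5 subunits of eIF2B, which recharges eIF2 with GTP, EIF2B4 rose (20% called, against 27.9% of all tested genes). This delta subunit (chr2:27364352-27370338) stood at 82.6, 90.4 and 91.8 CPM after β-alanine and at 71.3, 68.8 and 75.1 CPM in the controls, a rise of 0.31 ± 0.05 with no overlap (edgeR adjusted p = 0.000113). EIF2B2, the beta subunit, stood at 48.2, 52.7 and 55.1 CPM against 48.6, 47.8 and 49.4 CPM. Here exposed library 1 lay among the controls, and the change of 0.11 ± 0.06 did not pass (edgeR adjusted p = 0.154). Without exposed library 1 it was 0.15 with an adjusted p of 0.017. The log2 changes of the other 3 were 0.09 for EIF2B1, 0.04 for EIF2B3 and -0.09 for EIF2B5, the catalytic epsilon subunit, with edgeR adjusted p of 0.176 to 0.656.

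Among the 3 eIF2 alpha kinases covered, EIF2AK4 (GCN2), the sensor of uncharged tRNA, rose (33.3% called, against 27.9% of all tested genes). It stood at 152, 158 and 170.1 CPM in the exposed libraries and at 145, 141 and 138 CPM in the controls, so that the groups did not overlap and exposed library 3 was highest. The rise was 0.18 ± 0.05 (edgeR adjusted p = 0.00371) and the adjusted p was 0.0516 without exposed library 3. EIF2AK1 (HRI), the heme-regulated kinase, stood at 218, 222 and 214 CPM against 215, 207 and 204 CPM, with overlapping groups and a change of 0.07 ± 0.04 (edgeR adjusted p = 0.212). EIF2AK3 (PERK), the kinase of the endoplasmic reticulum, stood at 25.3, 28.96 and 26.4 CPM against 25.0, 29.4 and 27.2 CPM. Its groups covered the same range, and the change was -0.01 ± 0.07 (edgeR adjusted p = 0.93).

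The 13 tested subunits of eIF3 had a median log2 change of 0.03, and 4 rose while none fell. The share called was 30.8%, against 27.9% of all tested genes. EIF3M, a subunit that joins others of the core through its PCI domain, stood at 193, 202 and 199 CPM in the exposed libraries and at 179, 179 and 180.4 CPM in the controls, with no overlap. EIF3G, an RNA-binding subunit, stood at 139, 152 and 153 CPM against 140.3, 128 and 131 CPM, and here exposed library 1 lay below control library 1. The log2 rises were 0.14 ± 0.04 for EIF3M (edgeR adjusted p = 0.00781), 0.16 ± 0.05 for EIF3G (0.0145), 0.12 ± 0.04 for EIF3F (0.0226) and 0.12 ± 0.04 for EIF3I (0.0308). The other 9 had log2 changes from -0.10 (EIF3L) to 0.10 (EIF3J). EIF3CL was too low to test, with 4 to 14 counts per library, and EIF3C, its near-identical copy, had only 219 to 457 counts, so the level of EIF3C is uncertain.

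All 4 eIF3 calls depended on single libraries. That of EIF3M was lost without exposed library 2 (edgeR adjusted p = 0.0558). That of EIF3G was lost without exposed library 2 (0.0865) or 3 (0.086) or control library 2 (0.116) or 3 (0.0735), and that of EIF3F likewise (0.0592, 0.0811, 0.0996 and 0.0853). For EIF3I the adjusted p was 0.175, 0.137, 0.0858, 0.0647 and 0.138 without exposed libraries 2 and 3 and control libraries 1, 2 and 3 in turn. With every library thinned to the same total, edgeR gave 0.0501 for EIF3F and 0.0716 for EIF3I, and DESeq2 gave 0.0502 for EIF3I.

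**Figure D2:**
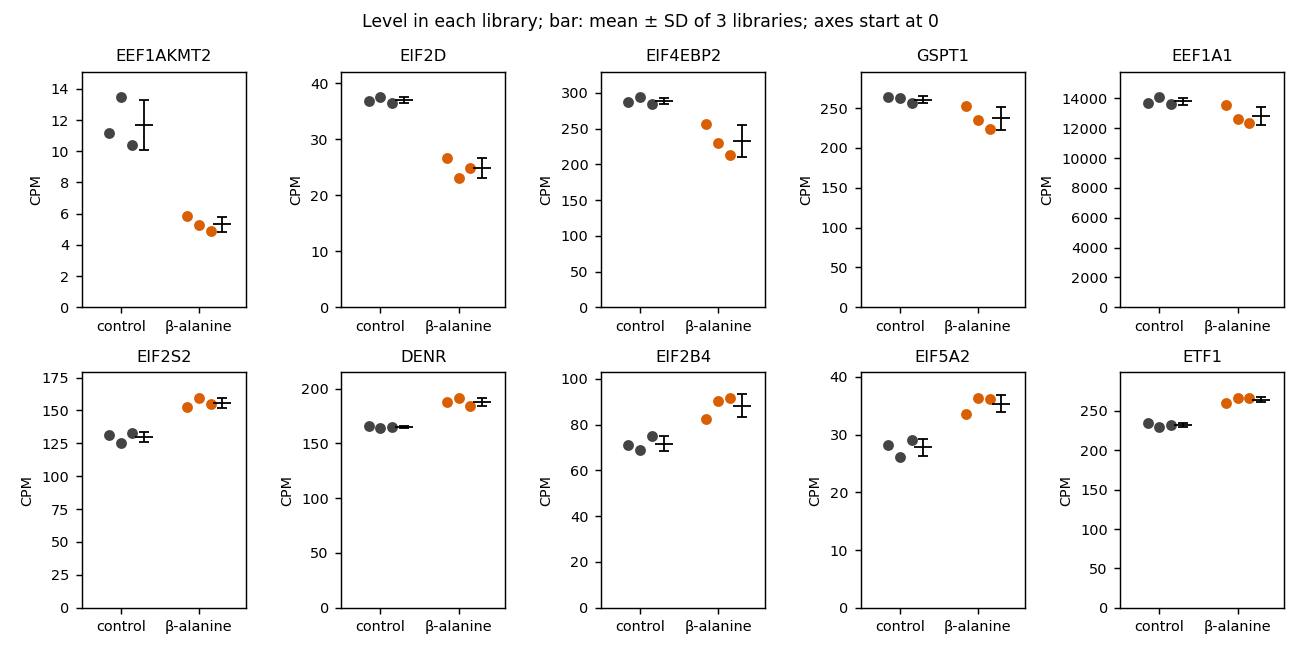
Level in CPM (vertical axes, each from 0) of 10 translation factors that passed the test, in each control and β-alanine library (points), with a bar for the mean ± SD of 3 libraries. The top row holds 5 factors that fell and the bottom row 5 that rose; EIF2D stood at 24.9 ± 1.81 CPM after β-alanine and 36.9 ± 0.513 CPM in the controls, a gap many times the spread, while in EEF1A1 the gap is close to it.

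Of the 10 tested genes of the cap-binding machinery, 1 rose and 2 fell (30% called, against 27.9% of all tested genes). EIF4E2 (4EHP), which binds the cap without recruiting eIF4G and so represses its targets, stood at 97.4, 102 and 101 CPM after β-alanine and at 90.9, 87.8 and 90.3 CPM in the controls. EIF4E3, an atypical cap-binding family member, stood at 25.3, 23.6 and 21.5 CPM against 28.3, 28.8 and 26.9 CPM. The groups were apart in both, upward in EIF4E2 and downward in EIF4E3. EIF4E2 rose by 0.16 ± 0.04 (edgeR adjusted p = 0.00685), EIF4E3 fell by 0.27 ± 0.07 (0.00733), and EIF4H, a cofactor of the eIF4A helicase, fell by 0.13 ± 0.04 (0.0141). Of the exon bases of EIF4E2, 24.2% are overlapped by genes on the other strand, and strand use in the counting is not given in the sources used here. Without control library 2 the adjusted p was 0.052 for EIF4E2, 0.0547 for EIF4E3 and 0.0684 for EIF4H. It was also 0.0736 for EIF4E3 without exposed library 3, and for EIF4H 0.08 without exposed library 2 and 0.0728 without control library 1.

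The canonical cap-binding protein EIF4E stood at 33.6, 31.3 and 32.6 CPM in the exposed libraries and at 32.4, 31.3 and 28.3 CPM in the controls. The scaffold EIF4G1 stood at 555, 553 and 562 CPM against 540, 536 and 535 CPM. EIF4E overlapped between groups, and EIF4G1 was a little higher in every exposed library. Their log2 changes were 0.08 ± 0.07 (edgeR adjusted p = 0.397) and 0.05 ± 0.03 (0.281). EIF4B, the other cofactor of eIF4A and the most abundant gene of the group per length, stood at 1400 ± 19.3 CPM against 1420 ± 13.6 CPM (mean ± SD, n = 3 each). EIF4A2, EIF4G2 and EIF4G3 had log2 changes of -0.03, 0.03 and -0.05. The helicase EIF4A1 was listed at 6.06, 6.53 and 6.20 CPM after β-alanine and at 5.73, 6.69 and 7.495 CPM in the controls, with 87 to 207 counts per library and a change of -0.08 ± 0.12 (edgeR adjusted p = 0.672). Since 48.6% of its exon bases are overlapped by other annotated genes, among them the read-through row SENP3-EIF4A1, this level is uncertain. EIF4E1B was too low to test, with 0 to 6 counts per library.

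Of the 4 genes for proteins that hold eIF4E in check or move it, 2 fell and none rose. That is 50% called, against 27.9% of all tested genes. EIF4EBP2 (chr10:70404145-70428618), a 4E-binding protein released from eIF4E when mTOR is active, stood at 257, 230 and 213 CPM in the exposed libraries and at 288, 294 and 285 CPM in the controls. Every exposed library was below every control, library 1 the least so. The fall was 0.31 ± 0.05 on the log2 scale (-0.31, edgeR adjusted p = 0.000351). EIF4ENIF1 (4E-T), which carries eIF4E into the nucleus and into processing bodies, stood at 22.9, 20.2 and 20.7 CPM against 24.1, 27.8 and 23.7 CPM. The groups were apart but near each other, and it fell by 0.26 ± 0.08 (edgeR adjusted p = 0.0155). The adjusted p of EIF4ENIF1 was 0.0961, 0.0581 and 0.155 without exposed libraries 2 and 3 and control library 2, and 0.0648 after thinning.

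EIF4EBP1, the other main 4E-binding protein, stood at 157, 139 and 133 CPM after β-alanine and at 152, 145 and 146 CPM in the controls. Exposed library 1 was the highest of the 6 and exposed libraries 2 and 3 the lowest, and the change of -0.05 ± 0.05 did not pass (edgeR adjusted p = 0.48). Without exposed library 1 it was -0.12 with an adjusted p of 0.0103. EIF4EBP3 had 8 to 41 counts per library, 73.4% of its exon bases are overlapped by other genes, and its change of 0.38 ± 0.32 did not pass (edgeR adjusted p = 0.413).

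Outside these complexes, EIF4A3, the helicase of the exon junction complex, stood at 206, 199 and 198 CPM after β-alanine and at 211, 202 and 191 CPM in the controls. EIF6, which keeps the large subunit from joining too early, stood at 39.1, 39.98 and 41.1 CPM against 42.6, 40.5 and 40.3 CPM. In both the groups overlapped, with edgeR adjusted p of 0.976 and 0.687. EIF1AD, a protein with a domain like that of eIF1A, stood at 83.2, 79.8 and 82.4 CPM against 69.4, 64.9 and 70.0 CPM. Its groups were well apart and it rose by 0.26 ± 0.05 (edgeR adjusted p = 0.000278).

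Of the genes for eIF5A, the hypusine-bearing factor that eases peptide bond formation at difficult sequences, EIF5A2 rose and the main gene EIF5A did not pass. The share called in this group was 33.3%, against 27.9% of all tested genes. EIF5A2 (chr3:170888418-170908637) stood at 33.6, 36.4 and 36.1 CPM in the exposed libraries and at 28.2, 26.1 and 29.01 CPM in the controls. EIF5A stood at 813, 825 and 792 CPM against 818, 798 and 769 CPM. EIF5A2 was higher in all 3 exposed libraries, while EIF5A ranged alike in both groups. EIF5A2 rose by 0.36 ± 0.06 (edgeR adjusted p = 0.000283) and EIF5A had a change of 0.03 ± 0.04 (0.641). EIF5AL1, a copy of EIF5A, had a change of -0.07 and did not pass.

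Of the 6 tested elongation factors none rose and 1 fell (16.7% called, against 27.9% of all tested genes). EEF1A1, the main carrier of aminoacyl-tRNA, stood at 13520, 12590 and 12330 CPM in the exposed libraries and at 13680, 14070 and 13650 CPM in the controls. Exposed library 1 lay just under the controls and the other 2 farther down, and the fall of 0.11 ± 0.04 (-0.11) passed narrowly (edgeR adjusted p = 0.0421). Without exposed library 2 or 3 or control library 1, 2 or 3 the adjusted p was 0.193, 0.184, 0.0622, 0.195 or 0.087. Its processed copy EEF1A1P5 was listed at 876 ± 59.5 CPM after β-alanine and 937 ± 21.3 CPM in the controls (mean ± SD, n = 3 each), and reads could be split between the 2 rows.

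EEF1A2, the paralog of muscle and neurons, stood at 166, 148 and 143 CPM after β-alanine and at 166, 166 and 158 CPM in the controls. EEF2, the translocase, stood at 4729, 4488 and 4467 CPM against 4722, 4756 and 4625 CPM. In both, exposed library 1 lay among the controls and exposed libraries 2 and 3 lay below them. The changes were -0.11 ± 0.05 for EEF1A2 (edgeR adjusted p = 0.107) and -0.04 ± 0.04 for EEF2 (0.395), and without exposed library 1 EEF1A2 had -0.17 with an adjusted p of 0.000391. EEF1B2 and EEF1D, which exchange the nucleotide on eEF1A, had log2 changes of 0.06 and 0.02, and EEF1E1, a part of the multi-synthetase complex, one of 0.11. EEF1G had 0 to 2 counts per library. A same-strand annotated gene overlaps 99.9% of its exon bases, so its level cannot be read from this table.

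The enzymes that modify the elongation factors held the largest change of all. EEF1AKMT2, a lysine methyltransferase of eEF1A (chr10:124756253-124791887), stood at 5.85, 5.25 and 4.88 CPM in the exposed libraries and at 11.1, 13.5 and 10.4 CPM in the controls, from 84 to 296 counts per library. Every exposed library was under 6 CPM and every control above 10 CPM. The means were 5.33 ± 0.486 against 11.7 ± 1.6 CPM (SD, n = 3 each), the log2 change was -1.16 ± 0.12 (edgeR adjusted p = 5.32e-07), and its size was at the 99.4th percentile of all tested genes. A same-strand gene overlaps 14.9% of its exon bases. EEF1AKNMT (METTL13), which methylates eEF1A at a lysine and at the N-terminus, stood at 91.4, 93.4 and 92.7 CPM against 74.7, 78.2 and 79.1 CPM. Its exposed libraries were all higher, with a rise of 0.26 ± 0.05 (edgeR adjusted p = 0.000182).

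EEF2K, the kinase that stops eEF2, stood at 39.1, 38.6 and 37.7 CPM after β-alanine and at 42.0, 48.0 and 44.5 CPM in the controls. The groups were apart and it fell by 0.23 ± 0.06 (edgeR adjusted p = 0.00622), with an adjusted p of 0.0757 without control library 2 and 0.072 after thinning. EEF1AKMT4, another eEF1A lysine methyltransferase at 4.97 to 5.78 CPM against 3.50 to 4.44 CPM, rose by 0.42 ± 0.14 (edgeR adjusted p = 0.0271). Other genes overlap 46.8% of its exon bases. Its call was lost without exposed library 2 (0.0765) or control library 1 (0.0766) or 2 (0.145), with DESeq2 (0.0736), and after thinning, where the change was 0.25 (0.318). EEF1AKMT1, EEF1AKMT3 and EEF2KMT had log2 changes of 0.15, 0.22 and -0.12, with edgeR adjusted p of 0.135 to 0.396.

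The release factors moved in opposite directions. Both were called, where 27.9% of all tested genes were. ETF1 (eRF1), which reads the stop codon (chr5:138506095-138543236), stood at 260.4, 266 and 267 CPM in the exposed libraries and at 235, 230 and 233 CPM in the controls. GSPT1 (eRF3a), its GTPase partner (chr16:11868128-11916654), stood at 253, 235 and 224 CPM against 264, 262 and 256 CPM. Exposed libraries were all higher for ETF1 and all lower for GSPT1, by little in library 1 for the latter. ETF1 rose by 0.19 ± 0.04 (edgeR adjusted p = 0.000597) and GSPT1 fell by 0.14 ± 0.04 (0.0164). The GSPT1 call was lost without exposed library 2 (0.0719) or 3 (0.121) or control library 1 (0.0671) or 2 (0.079). GSPT2, its paralog, had a change of -0.05 and did not pass.

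**Figure D3:**
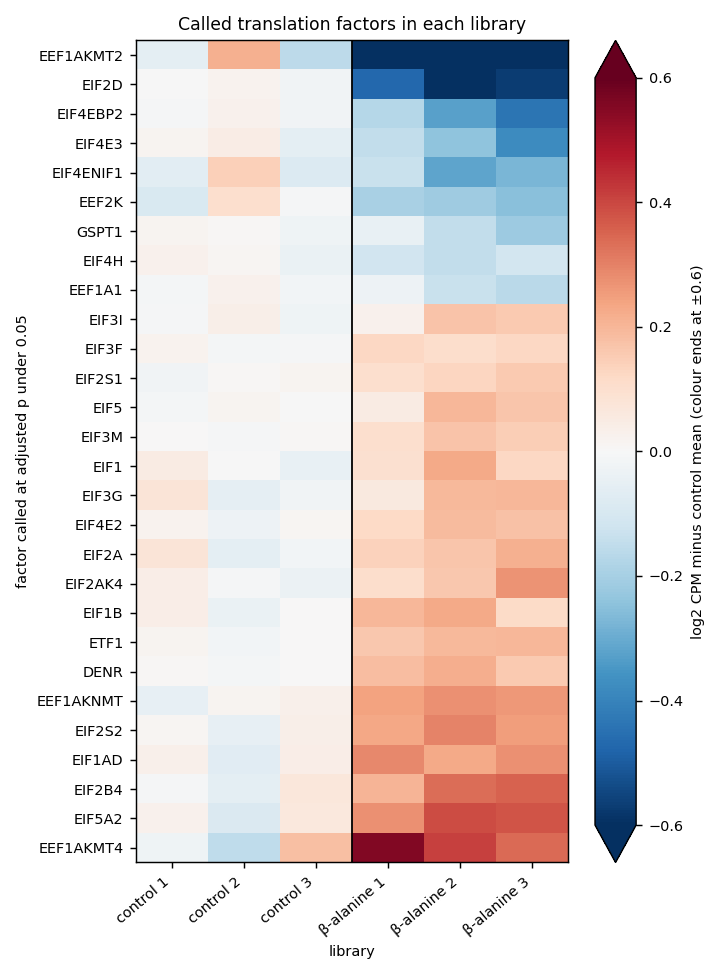
Log2 level relative to the control mean (colour scale, which ends at ±0.6) of the 28 translation factors that passed the test, 1 row per factor and 1 column per library. Exposed library 1 is paler than exposed libraries 2 and 3 in many of the factors that fell, whose mean was -0.25 there against -0.37 and -0.40.

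Several paralogs and partners shifted against each other within a library, a measure that does not depend on the scaling of libraries. The pairs were picked after the values were seen and are given as ratios of CPM, with no test. The ratio of ETF1 to GSPT1 was 1.03, 1.13 and 1.19 in the exposed libraries and 0.892, 0.876 and 0.909 in the controls. That of EIF2S2 to EIF2S3 was 0.278, 0.290 and 0.289 against 0.235, 0.224 and 0.242. The ratio of EIF2B4 to EIF2B5 was 2.77, 2.80 and 2.60 against 2.07, 1.91 and 2.23. In these 3 pairs every exposed library was above every control. For ETF1 to GSPT1 and EIF2S2 to EIF2S3 this had to follow, because the genes of each pair already lay apart in opposite directions. The same holds for EIF4E2 to EIF4E3. EIF5A2 to EIF5A gave 0.0414, 0.0441 and 0.0456 against 0.0345, 0.0327 and 0.0377, and EIF4E2 to EIF4E3 gave 3.85, 4.32 and 4.70 against 3.21, 3.05 and 3.36. EIF4EBP2 to EIF4E fell from 8.86, 9.38 and 10.1 in the controls to 7.65, 7.34 and 6.53. Other pairs overlapped between groups: EEF1A2 to EEF1A1 was 0.0122, 0.0118 and 0.0116 in exposed libraries 1 to 3 and 0.0121, 0.0118 and 0.0116 in the controls, and EIF1B to EIF1 also overlapped.

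**Figure D4:**
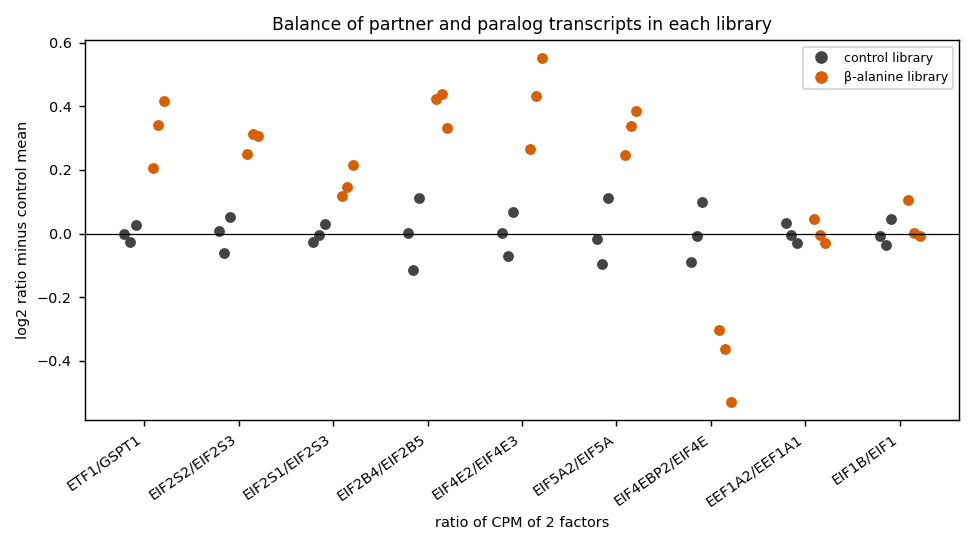
Log2 ratio of the CPM of 2 partner or paralog genes minus the control mean of that ratio (vertical axis), in each control and β-alanine library (points), for pairs chosen after their values were seen. The β-alanine points of ETF1 to GSPT1 lie above the controls (mean difference 0.32) and those of EEF1A2 to EEF1A1 lie among them (0.005).

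Per length, the levels in the control libraries spanned a wide range. As CPM divided by the kilobases of annotated exon (RPKM), the highest levels were those of EEF1A1 (2320), EEF2 (1170), EIF5A (282), EIF4B (230) and EIF3I (170). Within eIF2, the level was 160 RPKM for EIF2S3, 48.9 for EIF2S2 and 32.0 for EIF2S1. ETF1 was at 50.5 and GSPT1 at 32.5 RPKM, EEF1A2 at 33.2, EIF2B4 at 13.4, EIF5A2 at 4.97, EIF2D at 4.58 and EIF4E at 2.18. These levels use the union of all annotated exons, which lowers the level of genes with long or seldom used exons. EEF1AKMT2, the factor that changed the most, was at 2.76 RPKM, near EIF4E.

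The 13 factors with a TOP run at the annotated start had a median log2 change of -0.02. Of these EIF2A, EIF3F and EIF3M rose, EIF2D and EEF1A1 fell, and EEF1B2, EEF2, EIF2S3, EIF2S3B, EIF3D, EIF3K, EIF4A2 and EIF4B did not pass. The count table measures mRNA level and holds nothing on how well these mRNAs were translated. Other short motifs were searched on both strands of the promoter windows, from 250 bases before to 50 bases after the start. Counts of called genes among the carriers stand beside 27.9% risen and 13.2% fallen over all tested factors, and nothing particular to a motif is read from them. The ETS motif CCGGAAG was in 18 of the 57 factors (31.6%, against 12.2% of all windows), of which 8 rose and 2 fell. The E-box CACGTG was in 13 (22.8% against 8.77%), of which 4 rose and 2 fell. The cyclic AMP element TGACGTCA was found in EEF2 alone (1.75% against 2.25%) and the C/EBP-ATF element TGATGNAAN in EIF4E3 alone (1.75% against 4.45%). A match is a description of these letters, not a binding site.

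Around the core factors, 81 tested genes of translation control and its neighbouring steps were listed in 7 groups, and 23 rose while 12 fell (43.2% called), with a median log2 change of 0.07. The share called was 27.9% over all tested genes and 41.7% over those at or above 153 CPM, so the counts in these groups are a description of the genes and not of the groups. Many of the listed genes lay below 153 CPM, such as TRIB3 at 17.6 CPM in the controls. The second share thus comes from genes more abundant than these. In the feedback arm of the integrated stress response, which follows phosphorylation of eIF2, 5 of 8 rose and 1 fell. PPP1R15A (GADD34), which returns phosphatase to eIF2, rose from 19.1 ± 1.04 to 27.5 ± 1.82 CPM (mean ± SD, n = 3 each), by 0.53 ± 0.07 on the log2 scale (edgeR adjusted p = 1.56e-05). The target genes TRIB3 and DDIT3 (CHOP) rose by 0.51 ± 0.09 and 0.53 ± 0.09, and PPP1R15B by 0.28 ± 0.05 (edgeR adjusted p = 0.000125, 0.000147 and 0.000184). Other genes, on both strands, overlap 39.6% of the exon bases of DDIT3. ATF4 rose by 0.21, and GCN1, the activator of EIF2AK4, fell by 0.22. In the mTOR, S6 kinase and MNK group 4 of 16 rose and 3 fell. RHEB and MTOR rose by 0.25 ± 0.05 and 0.17 ± 0.04, and LARP1, which binds the TOP run, and MLST8 fell by 0.14 ± 0.04 and 0.17 ± 0.05. The MLST8 call was lost without exposed library 2 (edgeR adjusted p = 0.119) or 3 (0.0657) or control library 1 (0.0583) or 2 (0.0891).

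Of the helicases and other partners of initiation, 4 of 15 rose and 2 fell (40% called). Beside this and the other group counts here stands the 27.9% called over all tested genes. Those with the smallest p were LARP4, BZW1, ABCF1 and DDX3X, which rose by 0.29 ± 0.04, 0.24 ± 0.04, 0.22 ± 0.04 and 0.15 ± 0.04. Among 8 genes of poly(A)-binding proteins and their partners, PABPC4 fell, from 267 ± 9.99 to 209 ± 5.36 CPM (log2 -0.36 ± 0.04, edgeR adjusted p = 1.46e-06), and no other passed (PAIP2, higher, and PAIP1, lower, reached 0.05 without adjustment), with PABPC1 at 2870 ± 53 and 2850 ± 88 CPM in controls and exposed libraries. The group that makes hypusine on eIF5A and diphthamide on eEF2 was split, with 3 of 9 risen and 3 fallen: DNAJC24, DPH3 and DPH2 rose by 0.23 ± 0.04, 0.30 ± 0.06 and 0.26 ± 0.05, and DPH1 fell by 0.28 ± 0.06. Other genes overlap 19.5% of the exon bases of DPH1. The hypusine enzymes DHPS and DOHH did not pass.

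In the group of selenocysteine insertion, rescue and recycling, 3 of 16 rose and 2 fell (31.2% called). Beside this count and that of the mitochondrial factors stands the 27.9% called over all tested genes. EEFSEC, the elongation factor that delivers selenocysteinyl-tRNA, fell from 14.1 ± 1.13 to 8.57 ± 0.657 CPM (mean ± SD, n = 3 each), by 0.73 ± 0.10 (log2 -0.73, edgeR adjusted p = 1.38e-05). SEPSECS, which makes that aminoacyl-tRNA, fell by 0.40 ± 0.07. SBDS, which frees eIF6 from the large subunit, rose by 0.28 ± 0.05, and the recycling factor ABCE1 by 0.15 ± 0.04. Of 9 mitochondrial factors 4 rose and none fell (GFM2, lower, reached 0.05 without adjustment), led by the release factor MTRF1L (0.55 ± 0.10), the elongation factors TUFM (0.17) and GFM1 (0.16), and MTRF1 (0.31). Genes on the other strand overlap 34.8% of the exon bases of MTRF1L, 15.3% of EEFSEC, 12.0% of SBDS and 11.9% of ABCE1. Without exposed library 2 or control library 2 the edgeR adjusted p of ABCE1 was 0.0839 or 0.0591. That of GFM1 was 0.0645 without exposed library 2 and 0.0987 without control library 1. That of MTRF1 was 0.295, 0.0882 and 0.192 without exposed library 3 and control libraries 1 and 2, 0.0853 after thinning and 0.0779 with DESeq2.

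Of the 28 calls among the translation factors, 10 held when each library was left out in turn and under each other setting tried at the same threshold. These were the rises of DENR, EEF1AKNMT, EIF1AD, EIF2B4, EIF2S2, EIF5A2 and ETF1 and the falls of EEF1AKMT2, EIF2D and EIF4EBP2. The other 18 lost significance in at least 1 refit, and all 28 kept their sign in every refit.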

How the data were processed

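Whole-number counts of reads per gene symbol were deposited by the authors for 6 libraries, 3 per group by their titles. The submitters' processing notes list bcl2fastq, Trimmomatic (0.39), STAR (2.7.3a), featureCounts (2.0.1), DESeq2 and build GRCh38. Settings, annotation and strand handling were not given in the sources used here. From these counts, genes were filtered with filterByExpr, totals were scaled by TMM, and the groups were compared with edgeR 4.0.16's robust quasi-likelihood test (R 4.3.3, two-sided, no covariate), with Benjamini-Hochberg adjustment over 17331 genes and a threshold of 0.05. CPM uses the TMM-scaled totals, fold changes are β-alanine over control on the log2 scale, with the standard error taken as the change divided by the square root of F, and RPKM uses the union of GENCODE 29 exons. The depth was 14433801 to 32909568 counts per library, and the common dispersion was 0.00189.

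The members and lists were chosen with earlier results of these data known. Every called member is named; the 2 with the smallest p in each role group, and a set of core factors whatever their p, are given in every library; in each other list up to 4 called genes with the smallest p are named, and any further gene was named after its values were seen. Members under the count filter are given as ranges of counts. The procedure was tested on simulated data with 50 genes changed at each fold. It recovered 4% of those changed 1.1-fold, 50% at 1.25-fold, 60% at 1.5-fold and 90% at 2-fold, with 10 false among 112 calls. Far fewer genes were changed there than were called in the real data. The changed genes were also drawn from all tested genes, whose median level was 17.5 CPM against 153 CPM for the factors. These shares are thus not the recovery expected for the factors. A factor that did not pass may still have changed a little. Alternatives were DESeq2 1.42.0, limma-voom 3.58.1, other scalings and filters, thinning to equal totals, a replicate block, and leaving out each library.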

Additional observations from a re-analysis of the deposited data

How the results depend on the processing

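With an adjusted p under 0.01, all genes that rose numbered 1454 and all genes that fell 1391, against 2441 and 2389 at 0.05, and among the factors 13 rose and 5 fell, against 19 and 9. Leaving out each library in turn, all genes that rose numbered 1501 to 3204 and all genes that fell 1473 to 3294; 10 to 22 factors rose and 3 to 13 fell, as did 18 to 29 and 8 to 15 of the other translation genes. The lowest counts of factors came without exposed library 2 (10 rose, 5 fell) and without control library 2 (10 and 3), and without exposed library 3 there were 13 and 5; the cause was not tested. Thinning to equal totals gave 16 risen and 7 fallen factors and DESeq2 17 and 9, and no factor called at 0.05 changed sign under any setting.

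Same-numbered libraries deviated together only weakly, with correlations of 0.050, 0.004 and 0.072 for numbers 1, 2 and 3. Exposed libraries 1 and 3 correlated best with the control of their own number, and exposed library 2 with control library 1 (0.008). Since all of these were weak, the numbers were not taken to pair the libraries. With the replicate number as a block, 19 factors rose and 10 fell, and all genes that rose numbered 2564 and all genes that fell 2608.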

Other observations

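EIF2AK2 (PKR), the kinase of eIF2 that responds to double-stranded RNA and that the naming rule left out, stood at 203, 235 and 236 CPM in exposed libraries 1 to 3 and at 199, 205 and 218 CPM in control libraries 1 to 3. Exposed library 1 lay among the controls, and the log2 change of 0.12 ± 0.05 did not pass (edgeR adjusted p = 0.104).

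Of the 80 pseudogene rows that matched the symbol pattern, 15 had enough counts to be tested. The most abundant was EEF1A1P5, at 944, 837 and 847 CPM after β-alanine and 912, 948 and 950.2 CPM in the controls. There, as in EEF1A1, exposed libraries 2 and 3 were the lowest of the 6.

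The read-through row SENP3-EIF4A1 had 6, 26 and 24 counts in exposed libraries 1 to 3 and 5, 4 and 7 in the controls, too few to test. The row AP002990.1, whose annotated exons cover EEF1G, had 12, 34 and 34 counts against 10, 16 and 15, with a log2 change of 0.63 ± 0.29 (edgeR adjusted p = 0.113).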
